A study of Mus musculus with 18 samples.

Results

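The microRNA (miRNA) hairpin Mir342 yields 2 mature products, mmu-miR-342-5p and mmu-miR-342-3p, which are 2 of the 1907 mature miRNAs in the deposited table. They were taken by name, both arms of the one hairpin. The 3p arm had been selected by the study on these same libraries, for its enrichment after pseudouridine (Ψ) immunoprecipitation in WT cells and the change of that enrichment 6 days after knockdown of Pus1, and the 5p arm was added as the other product of that hairpin. The IP to input ratios in WT and KD6 cells, every change of a ratio between conditions and the differences between inputs are therefore given as a description and without a test.

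Small RNAs came from NIH/3T3, a mouse embryonic fibroblast line, and were sequenced both before IP (input) and after IP with an antibody against Ψ, a modified form of uridine (Ψ-IP). The cells were wild type for Pus1 (WT) or had been treated with siRNA against Pus1 for 3 days (KD3) or 6 days (KD6). WT cells carry no day in the labels, and no non-targeting siRNA group is among the samples. Each of the 3 conditions had 3 input and 3 IP libraries, named A, B and C, 18 in all, and no label says whether they came from separate cultures, so the spread measured between them may be technical. The table covers miRNAs only. Neither the level of Pus1 nor that of fibroblast markers could be checked here.

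A miRNA hairpin is cut out of a longer transcript in the nucleus by Drosha and trimmed to a short duplex by Dicer in the cytoplasm. One strand of the duplex is kept by an Argonaute protein and finds target messenger RNAs through its seed, bases 2 to 8, while the other strand is usually degraded. Pus1 is one of several enzymes that convert uridine to Ψ within an RNA chain, best known for its work on transfer RNA. Mir342 is carried by Evl, the gene of the Ena/VASP-like protein, which promotes actin filament growth, and miR-342-3p is known mainly from blood cells and leukaemia.

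In GRCm38 (mm10), the hairpin lies on the plus strand of chromosome 12 from 108658620 to 108658718, within Evl (108554720 to 108688516, same strand). In GENCODE M21 it sits in an intron of all 5 Evl transcripts that span it, between 108653100 and 108673288. This is intron 3 in 4 of them and intron 4 in Evl-204. The intron is 20189 bases long, and the hairpin starts 5521 bases after the last base of the exon before it and ends 14571 bases before the next exon. No exon of Evl overlaps it. The hairpin is shown because both arms, in capitals, are the molecules counted. It and the mature sequences come from RefSeq for GRCm38.p6.

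Mir342 hairpin: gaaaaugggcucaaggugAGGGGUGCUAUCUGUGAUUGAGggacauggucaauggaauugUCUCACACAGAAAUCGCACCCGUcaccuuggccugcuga

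The 5p arm covers bases 19 to 40 of the 99-base hairpin and the 3p arm bases 61 to 83, with 20 bases between them. The mature arms follow with their seeds in capitals, since the seed sets what each arm can bind.

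mmu-miR-342-5p: aGGGGUGCuaucugugauugag

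mmu-miR-342-3p: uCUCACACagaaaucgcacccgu

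The 5p arm, 22 nt long at 108658638 to 108658659, had 7 uridines, at positions 6, 9, 11, 13, 15, 18 and 19 from its 5′ end. The 3p arm, 23 nt long at 108658680 to 108658702, had 4, at positions 1, 3, 14 and 23. Uridine made up 31.8% of the 5p arm and 17.4% of the 3p arm, against a median of 27.3% over the 474 tested miRNAs (86.7% of 547) with a RefSeq sequence. Of those 474, 59.1% had a lower share than the 5p arm and 11.4% a lower share than the 3p arm. GC content was 50% and 52.2%, against a median of 50%. No other mature miRNA among 1679 in the RefSeq table shared either seed. Each arm had a single row in the deposited table, whose start position was that of the RefSeq sequence, so no count was divided between copies of the hairpin. The motif UNUAA or UNUAG, a context that some Ψ synthases recognise, was searched on the RNA strand and was found in neither arm nor elsewhere in the hairpin. It was found in 10.4% of all mature sequences and 41.0% of 1005 hairpins. The files hold counts per miRNA, and the position of any Ψ within these arms was not measured here.

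Library depth was 3989031 to 15099781 mapped reads, except in KD6 input A, which stood apart with 241109. Reads that fell in no miRNA row accounted in WT input for 5.60% ± 0.22 of what was mapped, 9.66% ± 0.28 in KD3 input and 8.82% ± 1.68 in KD6 input (SD, n = 3). The share was 16.8% ± 1.88 in WT IP, 32.4% ± 5.26 in KD3 IP and 27.6% ± 3.83 in KD6 IP, and its part in the results was not tested. Because the reads carry no molecular identifiers, intervals on counts cover counting error only.

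Both arms were expressed at modest levels in the fibroblasts. The deposited values are estimated counts, in which a read that matches several places is divided among them. The 3p arm had 1016, 1314 and 991 estimated counts in WT inputs A, B and C, 1116.3, 951 and 666 in the KD3 inputs, and 15, 650 and 1343 in the KD6 inputs. The 5p arm had 180.5, 274.5 and 198 counts in the WT inputs, 207.2, 181.8 and 173.2 in the KD3 inputs, and 5, 113 and 216.8 in the KD6 inputs. In every input library the 3p arm was the more abundant, and the 15 and 5 counts of KD6 input A are too few for a firm value. By its mean share of miRNA reads in WT input, the 3p arm ranked 150 and the 5p arm 244 among 1047 miRNAs with any read there.

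In CPM (counts scaled to a common library size, here with TMM, which corrects for library composition), the 3p arm stood at 87.5, 85.0 and 74.6 CPM in the WT inputs, a mean of 82.4 ± 6.83 (SD, n = 3). It was at 70.5, 65.5 and 71.3 CPM in the KD3 inputs (69.1 ± 3.13), all below the WT inputs, and at 68.3, 85.2 and 108 CPM in the KD6 inputs (87.3 ± 20.1). The 5p arm was at 15.5, 17.7 and 14.9 CPM in the WT inputs (16.04 ± 1.49), 13.1, 12.5 and 18.5 CPM in the KD3 inputs (14.7 ± 3.31), and 22.8, 14.8 and 17.5 CPM in the KD6 inputs (18.4 ± 4.04). These groups overlapped for the 5p arm in every pair.

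The inputs give the amount of each arm before IP. The WT and KD6 inputs entered the contrasts on which the 3p arm was selected, so these differences are also a description and carry no test. In KD3 against WT input the log2 ratio was −0.25 ± 0.29 (SE) for the 3p arm and −0.13 ± 0.21 for the 5p arm. No miRNA passed in this comparison (0% of 547), with 40 at an unadjusted p under 0.05 and 12 called by DESeq2, but on the 6 libraries alone 74 passed, and 86 with the replicate letter as a block, whose same-letter libraries deviated together. Groups that stood apart, as those of the 3p arm, were seen for 31.4% of the miRNAs tested. In KD6 against WT input the 3p arm was at 0.14 ± 0.30 and the 5p arm at 0.06 ± 0.23, where 2.56% of miRNAs passed and 22.7% had groups that did not overlap. Without KD6 input A the ratios were 0.26 and 0.04. The sign turned in 2 of 16 alternatives for the 3p arm and in 3 for the 5p arm. In KD6 against KD3 input the 3p arm was at 0.40 ± 0.30 and the 5p arm at 0.19 ± 0.23, where 2.19% of miRNAs passed and 21.8% had groups that did not overlap.

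After Ψ-IP, the CPM of both arms moved up in WT and KD3 cells, and in KD6 cells the arms parted. The 3p arm stood at 322, 240 and 196 CPM in WT IP A, B and C, a mean of 253 ± 63.8 (SD, n = 3), on 1092, 1088.5 and 1137 estimated counts. In the KD3 IP libraries it was at 211, 103.1 and 179 CPM (164 ± 55.4), on 530, 294 and 1086.5 counts. In the KD6 IP libraries it was at 78.4, 81.0 and 168 CPM (109 ± 51.2), on 192, 160 and 761 counts. On this scale replicates A and B of the KD6 IP lay within the range of the KD6 inputs, and C lay above all of them. As RPM over all mapped reads, the KD6 IP libraries were at 33.5, 40.1 and 83.9 and the KD6 inputs at 62.2, 101 and 145, so that A and B lay below every input library of every condition and C lay within the KD6 inputs.

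The 5p arm stood at 146, 118 and 121 CPM in WT IP A, B and C (129 ± 15.4), on 495.5, 536 and 702.8 estimated counts. It was at 83.2, 80.0 and 86.5 CPM in the KD3 IP libraries (83.2 ± 3.26), on 209, 228 and 524.1 counts, and at 168, 164 and 128 CPM in the KD6 IP libraries (153 ± 22.1), on 412.5, 324 and 579 counts. Every IP library of every condition lay above every input library for this arm.

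**Figure D1:**
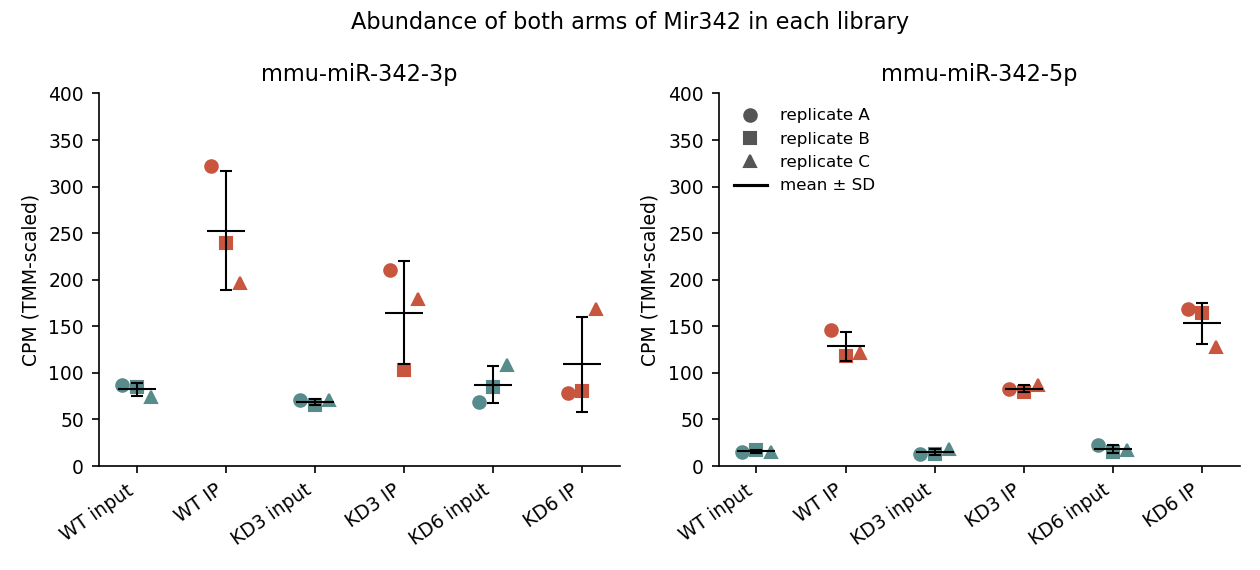
Abundance of mmu-miR-342-3p (left) and mmu-miR-342-5p (right) in each library, in TMM-scaled CPM, by group. Symbols are replicates, horizontal lines are means and bars are SD (n = 3). The 5p arm was at 80.0 to 168 CPM in the IP libraries and at 12.5 to 22.8 CPM in the inputs, while KD6 IP A and B of the 3p arm sat among the inputs on this scale and, at 33.5 and 40.1 as RPM over all mapped reads, below all of them.

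Ordered by mean CPM, the 3p arm was highest in WT IP, then KD3 IP, KD6 IP, KD6 input, WT input and KD3 input. Each neighbouring pair in that order overlapped except WT input and KD3 input, which stood apart for 31.4% of the miRNAs tested. The 5p arm was highest in KD6 IP, then WT IP, KD3 IP, KD6 input, WT input and KD3 input. Its KD3 IP libraries overlapped neither with the WT IP above nor with the KD6 inputs below, and its other neighbours overlapped. For these pairs the share of all miRNAs with groups apart was not computed, so the gaps are not read as particular to this arm. Both orders rest on the scaling. As RPM over all mapped reads the 3p arm was lowest in KD6 IP, and the 5p arm was 110, 87.3 and 85.9 in WT IP and 72.1, 81.2 and 63.8 in KD6 IP. On that scale the KD6 IP libraries of the 5p arm lay below its WT IP libraries, where the share over all miRNAs was also not computed.

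The comparison in KD3 sets KD3 IP against KD3 input, which were not the libraries that selected the 3p arm, and was tested. The arms were chosen with earlier results of these data known, so its p-values are not support independent of that choice. Over all miRNAs the SD of the log2 ratio was 2.43 in KD3 and 2.37 in WT, and that of its change 0.94. Ratios in KD3 thus largely followed those in WT, which selected the 3p arm. Its filter, scaling and spread were taken from all 18 libraries, those of WT and KD6 among them. Relative to KD3 input, the 5p arm rose in KD3 IP by a log2 ratio of 2.50 ± 0.22 (SE), 5.68-fold (adjusted p = 2.78e-09, edgeR quasi-likelihood test, Benjamini-Hochberg, n = 3 libraries per group). The 3p arm rose by 1.25 ± 0.29, 2.38-fold (adjusted p = 0.000694, same test). Calls were common in this comparison. Of the 547 miRNAs tested, 71.7% passed in either direction and 38.6% were called higher in IP, against which the call of both arms is to be read, and the groups did not overlap for 74.8%. The median log2 ratio of all miRNAs was 0.18, which left the 5p arm 2.32 and the 3p arm 1.07 above it. By log2 ratio the 5p arm ranked 56 and the 3p arm 173 of 547.

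The call of the 5p arm held in all 16 alternatives tried, with adjusted p between 1.7e-25 and 7.2e-06 over edgeR and DESeq2, while its log2 ratio fell to 1.73 when libraries were scaled by all mapped reads. That of the 3p arm was lost when libraries were scaled by all mapped reads, where the ratio was 0.45 (adjusted p = 0.216, edgeR quasi-likelihood), and without an abundance filter, where it was 0.54 (adjusted p = 0.118, edgeR quasi-likelihood). In a fit of the KD3 libraries alone, which no WT or KD6 library enters, both calls held. There the log2 ratio was 2.01 for the 5p arm (adjusted p = 7.25e-06, edgeR quasi-likelihood) and 0.73 for the 3p arm (adjusted p = 0.00943, same test).

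The same ratios in WT and KD6, from the same fit, are a description, as these contrasts selected the 3p arm. In WT, the 3p arm was at a log2 ratio of 1.62 ± 0.29 (SE) and the 5p arm at 3.00 ± 0.22, which is 1.29 and 2.68 above the median of all miRNAs, and they ranked 142 and 26 of 547. Without the abundance filter these log2 ratios were 0.78 and 2.16. For both arms the IP libraries stood clear of the inputs, as for 77.5% of the miRNAs tested. In KD6, the 5p arm was at 3.19 ± 0.25 and ranked 50, and the 3p arm was at 0.27 ± 0.30 and ranked 270, close to the median of all miRNAs, from which it differed by 0.06. IP and input did not overlap for the 5p arm in KD6 but did for the 3p arm, where 59.2% of miRNAs did not overlap.

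**Figure D2:**
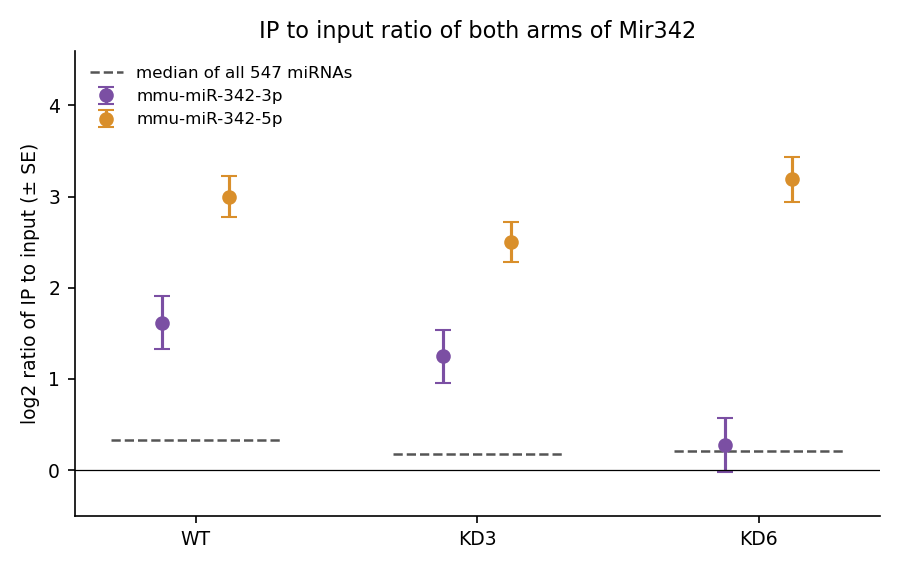
Log2 ratio of Ψ-IP to input for both arms in WT, KD3 and KD6 cells, with SE bars from the fit over 18 libraries, and the median of all 547 miRNAs as a dashed line. The 5p arm lay between 2.50 and 3.19 in the 3 conditions, and the 3p arm lay at 1.62, 1.25 and 0.27.

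The KD6 value of the 3p arm had no firm sign and stayed above 0 in 7 of 16 alternatives. It was −0.63 without KD6 input A, −0.19 without KD6 IP C, −0.70 when libraries were scaled by size only and −1.04 when scaled by all mapped reads. Relative to the median of all miRNAs in the same setting, these were −0.09, −0.33, 0.06 and 0.04. The 5p arm was at 2.40 without KD6 input A and at 1.81 with total mapped reads, and stayed above 0 in all 16 alternatives.

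The change of the ratio from WT to KD6, which selected the 3p arm, was −1.34 ± 0.41 (SE) for that arm and 0.19 ± 0.31 for the 5p arm, or −1.44 and 0.09 relative to the median of all miRNAs. By this change the 3p arm ranked 496 and the 5p arm 245 of 547. Without KD6 input A the changes were −1.54 and 0.11, and without KD6 IP C they were −1.80 and 0.32. The sign of the 5p arm's change turned in 2 of 22 alternatives, those scaled by library size only (−0.36) and by all mapped reads (−0.50), and in the latter the median of all miRNAs was −0.56. From WT to KD3, the change was −0.37 ± 0.40 for the 3p arm and −0.50 ± 0.30 for the 5p arm, and from KD3 to KD6 it was −0.98 ± 0.41 and 0.69 ± 0.31, the last at −0.02 when libraries were scaled by size only. These comparisons share libraries with each other and are set side by side only.

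The balance of both arms within a library does not depend on how libraries are scaled, since the total cancels. The 5p arm made up 15.1%, 17.3% and 16.7% of the reads of both arms in WT inputs A, B and C, a mean of 16.3% ± 1.14 (SD, n = 3). It made up 15.6%, 16.1% and 20.6% in the KD3 inputs (17.4% ± 2.76) and 25%, 14.8% and 13.9% in the KD6 inputs (17.9% ± 6.16). The first of the KD6 values rests on 5 of 20 reads, with an exact 95% Clopper-Pearson interval of 8.66% to 49.1%. The 3 input groups overlapped in this share, and their mean log2 of 5p over 3p, with 1 added to each count, was −2.35 in WT, −2.25 in KD3 and −2.18 in KD6. The mean share in the KD6 inputs was 14.4% without KD6 input A.

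After Ψ-IP the 5p arm took a larger share in every condition. It made up 31.2%, 33% and 38.2% in WT IP A, B and C (34.1% ± 3.62), and 28.3%, 43.7% and 32.5% in the KD3 IP libraries (34.8% ± 7.95). In the KD6 IP libraries it made up 68.2%, 66.9% and 43.2% (59.5% ± 14.1), so that the 5p arm was the more abundant in A and B and the 3p arm in C. In each condition all 3 IP libraries lay above all 3 inputs. How often the libraries of other hairpins stand apart in this share was not computed.

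In KD3, the log2 of 5p over 3p was 1.33 ± 0.33 (SE) higher after IP than before it (exact permutation test, two-sided, p = 0.1, n = 3 per group, the smallest p that 3 against 3 allow; adjusted p = 0.2 over the 2 tests of arm balance computed). The same difference was 1.40 ± 0.15 in WT and 2.76 ± 0.62 in KD6, as descriptions. In KD6 it was 3.14 without KD6 input A and 3.24 without KD6 IP C. Between the IP groups, the balance in KD6 IP was 1.52 ± 0.50 above that in WT IP, with no overlap, which was not computed for other hairpins. The balance in KD6 IP was 1.49 ± 0.56 above that in KD3 IP, where KD6 IP C and KD3 IP B overlapped by 0.03. WT IP and KD3 IP differed by 0.03 ± 0.32.

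**Figure D3:**
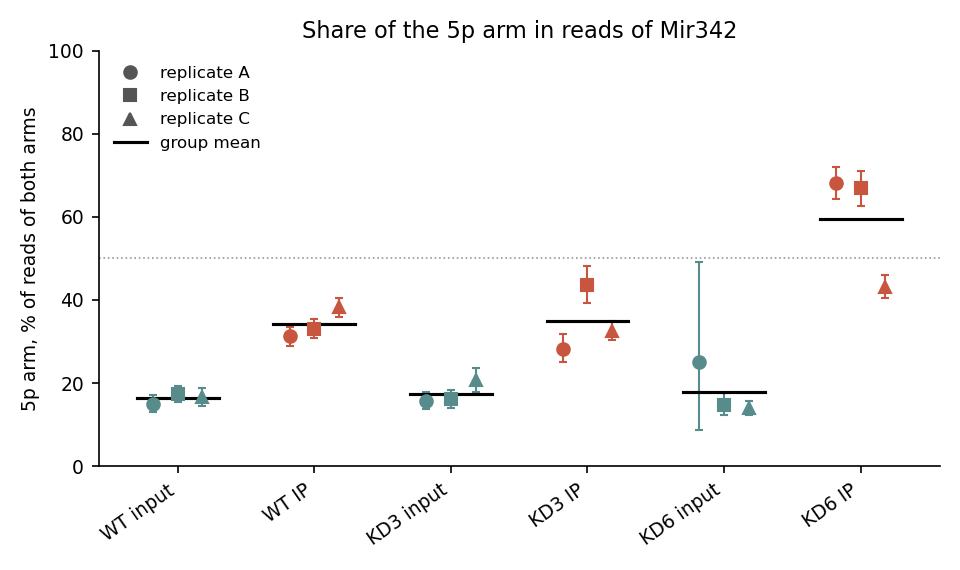
Share of mmu-miR-342-5p in the reads of both arms in each library, in percent, by group. Symbols are replicates with exact 95% binomial intervals for counting error, black lines are group means, and the dotted line marks equal shares. Inputs lay between 13.9% and 25%, WT and KD3 IP between 28.3% and 43.7%, and KD6 IP A and B at 68.2% and 66.9%.

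A second set of deposited columns gives distinct read sequences per miRNA, which vary through trimmed or extended ends and sequencing errors. The 3p arm had 74 to 97 distinct sequences in the WT inputs and 73.5 to 82 in the WT IP, or 13.0 ± 1.07 and 14.3 ± 0.85 reads per distinct sequence (SD, n = 3). The 5p arm had 36 to 46.5 and 50.5 to 61.8, or 5.29 ± 0.53 and 10.6 ± 0.78 reads per distinct sequence. In the KD6 IP libraries, the 3p arm had 18, 21 and 56 distinct sequences and the 5p arm 44.5, 36 and 57. Counted in distinct sequences, the balance of the arms also moved toward 5p from input to IP, by 0.53 in WT, 0.92 in KD3 and 1.44 in KD6 on the log2 scale. The number of distinct sequences rises with the number of reads, so these values are not a second independent measurement.

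**Figure D4:**
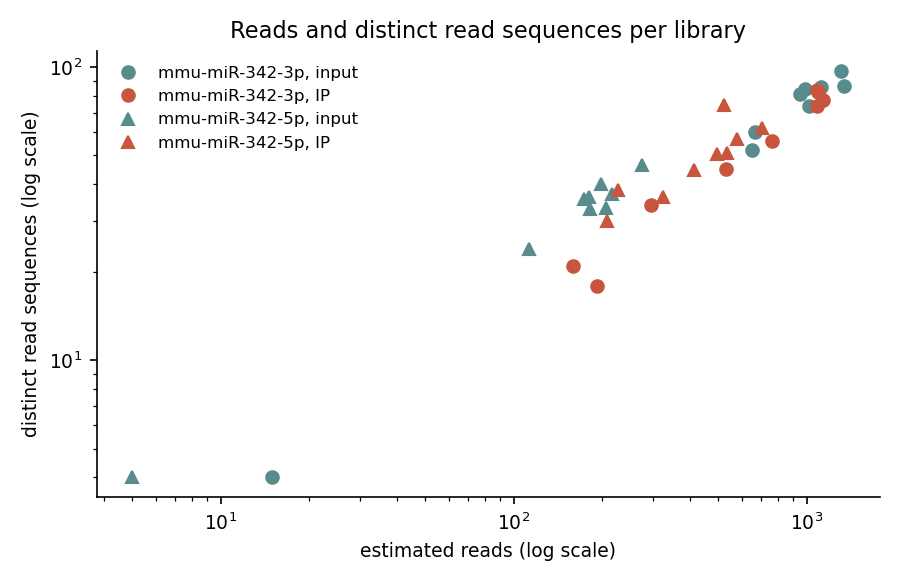
Distinct read sequences against estimated reads for both arms in each of the 18 libraries, on log axes. Circles are mmu-miR-342-3p and triangles are mmu-miR-342-5p, with inputs in teal and IP in red. Both counts rose together, and the 2 points at the lower left, at 15 and 5 reads, are KD6 input A.

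Unequal behaviour of the arms was common among hairpins. For 157 hairpins with both a 5p and a 3p row tested, the difference between the arms' IP to input log2 ratios had a median near 0 in KD3, with quartiles of −1.68 and 1.94. At 1.25, Mir342 ranked 53 from the top, and 98 hairpins (62.4%) had a difference of larger size. In WT its difference of 1.38 ranked 54 of 157, and in KD6 its difference of 2.92 ranked 33. By the change of this difference from WT to KD6 (1.53), it ranked 19 of 157, where the median was 0.06 with quartiles of −0.59 and 0.77. The hairpins were not matched for abundance. Mean CPM of their arms over the 18 libraries ran from 0.48 (miR-20a-3p) to 208320 (miR-21a-5p), against 69.1 and 128 for the 5p and 3p arms of Mir342. Ratios of arms near the floor are unsteady and widen the scatter, and the place of Mir342 among hairpins of like abundance was not computed. All of these places are descriptions and carry no test.

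**Figure D5:**
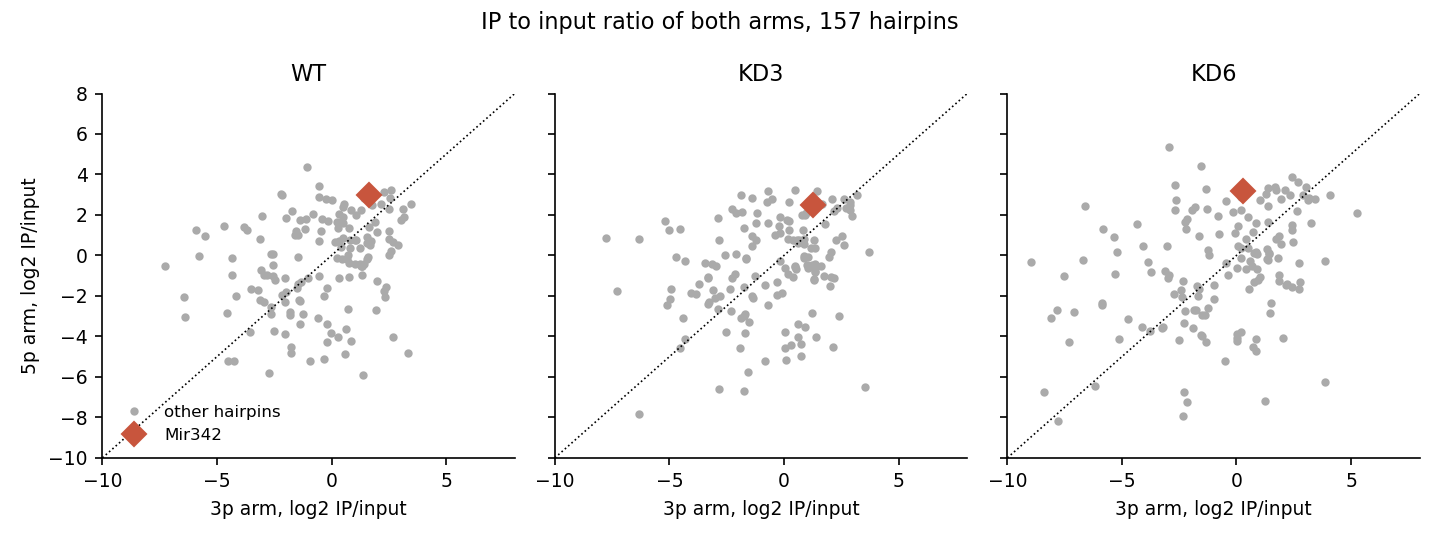
Log2 ratio of Ψ-IP to input of the 5p arm against that of the 3p arm for 157 hairpins with both arms tested, in WT, KD3 and KD6. The diamond is Mir342 and the dotted line marks equal ratios. Mir342 lay above the line in each panel, by 1.38, 1.25 and 2.92, within the scatter of the other hairpins, which were not matched for abundance.

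A list of other miRNAs from introns of protein-coding genes was set by 37 name stems. It gave 75 mature miRNAs, of which 53 were tested. The stems were not searched from the annotation, so other intronic miRNAs may be missing. Places within the list hold for its members only. In KD3 IP against input, 14 were called higher, 23 lower and 16 were not called, against 71.7% of all miRNAs called and 38.6% called higher. The median log2 ratio of the list was −0.50, against 0.18 for all miRNAs. The list ranged from −7.85 to 2.44. Of its 53 members 7 lay above miR-342-3p and none above miR-342-5p, at 2.50. In the 3 comparisons of inputs, 0 of the 53 were called in the edgeR fit over all 18 libraries. The shares over all miRNAs in that fit were 0% for KD3 against WT, 2.56% for KD6 against WT and 2.19% for KD6 against KD3. Calls of list members in the alternative fits, some of which called more miRNAs, were not counted.

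As a description, uridine content and the KD3 ratio were set side by side across the 474 miRNAs with a sequence, which share libraries and are not independent replicates (Pearson r = 0.06 for the percentage of uridine and 0.19 for GC content). The 75 other miRNAs with 7 uridines, as in the 5p arm, had a median log2 ratio of 0.85 and quartiles of −1.39 and 1.76, below the 2.50 of the 5p arm. The 46 others with 4 uridines, as in the 3p arm, had a median of −0.76 and quartiles of −2.12 and 1.97, which span the 1.25 of the 3p arm. By first base, 201 miRNAs that begin with U, as the 3p arm does, had a median of 0.74, and 125 that begin with A, as the 5p arm does, had a median of −0.58.

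Over the 18 libraries, the log2 CPM of the 2 arms correlated with a Pearson r of 0.67, a description of libraries that differ mainly between IP and input. Among 236 miRNAs with a mean of at least 20 CPM, the pattern of miR-342-5p was most like those of miR-5099 (r = 0.99), miR-155-5p (0.99) and let-7b-3p (0.98). The pattern of miR-342-3p was most like those of miR-125b-5p (r = 0.87), miR-193a-5p (0.86) and miR-667-3p (0.85). In likeness to miR-342-3p, which is itself among the 236, its other arm ranked 38 among the rest of them.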

How the data were processed

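The authors processed the reads with the SeqImp pipeline (version not given in the sources used here) on mm10 with Ensembl 89 and miRBase 21, and deposited estimated counts of mapped reads and of distinct read sequences per mature miRNA, not normalized. Of the non-zero values, 47.0% were not whole, and the counts were rounded for testing. The 2 arms and all lists were chosen with earlier results of these data known. The miRNAs named for a like pattern are the 3 with the highest r to each arm.

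The test was that of edgeR 4.0.16 under R 4.3.3 (TMM, filterByExpr, glmQLFit, glmQLFTest; 6 group means over 18 libraries; library size from all miRNA rows), which left 547 miRNAs, and an adjusted p under 0.05 was the threshold. An SE was obtained by dividing the absolute log2 ratio by the root of its F statistic. Alternatives were other scalings and filters, DESeq2 1.42.0, a block on the replicate letter, subsets of libraries and each library left out. Exact permutation tests used scipy 1.17.1. Tests of the arms between inputs were planned but are not given, since the WT and KD6 inputs entered the selection. The procedure was run on simulated counts built from the mean input profile. They lack the broad difference between IP and input, so they cannot test the scaling of that comparison. Same-letter libraries deviated together, over 188 miRNAs, for KD3 against WT input (r 0.20 to 0.61) and KD6 against KD3 input (0.24 to 0.34). It was less even for KD6 against WT input (0.06 to 0.43). For IP against input, r was −0.07 to 0.38 in KD3, −0.18 to 0.52 in KD6 and −0.15 to 0.03 in WT. Nothing in the labels says what a letter stands for.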

Additional observations from a re-analysis of the deposited data

How the results depend on the processing

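KD3 IP against input of the 3p arm kept its direction in all 16 alternatives and its call in 14, and was at 0.453 with total mapped reads and 0.542 without the abundance filter. The 5p arm kept its call in all 16. The replicate block changed neither call, with 1.22 and 2.51 for the arms in KD3 IP, 1.33 for the arm balance, and 1 miRNA past the threshold in KD3 against WT input in place of 0. For that comparison the count was 1 without factors, 5 without the filter, 12 with DESeq2, 74 on the libraries compared alone and 86 on these with the block (the last chosen after seeing the data). For KD6 against WT input, 14 became 27 with library sizes from the rows tested (also chosen after seeing the data), 30 with DESeq2, and 0 to 26 with a library left out, 26 without KD6 input A. For KD6 against KD3 input, 12 became 22 with RLE factors, 24 without the filter, 32 with library sizes from the rows tested, 33 with DESeq2, and 1 to 41 with a library left out, 41 without KD6 input A. Measured from the all-miRNA median, the WT ratio of the 3p arm was 0.906 without the filter, and that of the 5p arm was 2.286 without the filter, 2.505 with DESeq2 and 2.474 to 2.713 with a library left out. The KD6 ratios were −0.594 and 2.312 without the filter, and the 5p arm's change from WT to KD6 was −0.083 to 0.354 with a library left out. The causes were not tested. Over the settings, the median of all miRNAs ran from −0.36 to 0.50 for WT, from −0.60 to 0.42 for KD3 and from −1.08 to 0.35 for KD6. The depth of KD6 input A, with 15 and 5 reads of the arms, limits the KD6 input values.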
